A study of Homo sapiens with 10 samples.

Results

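The knockdown of TDP-43 in SH-SY5Y cells was examined across 16799 genes, which are those whose mean over 6 RNA sequencing libraries reached 1 TPM (a length-corrected share of all transcripts), out of 58174 genes in the deposited table. SH-SY5Y is an established human neuroblastoma line of noradrenergic character. The 3 siTDP-43 libraries came from cells transfected with a pool of small interfering RNAs (siRNAs) against TDP-43, and the 3 siControl libraries from cells given a control siRNA pool. Both pools were used at 50 nM with RNAiMAX lipid, in a first dose and a further dose at 24 h, with RNA taken at 96 h. No deletion or other allele was stated for these groups. The series holds 10 libraries, and the other 4, from wild-type cells of the same line and from cells edited to carry N352S in both copies of TDP-43, entered the model only as 2 further groups that share its estimate of spread. The submitters describe the 3 libraries of a group as biological replicates without naming the cultures. Each p-value sets the difference against the spread within the 4 groups of the model, moderated across genes. That spread may be partly technical.

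TDP-43 is a nuclear RNA-binding protein of the hnRNP family, encoded by TARDBP. It binds UG-rich stretches of RNA, represses the use of cryptic exons and premature polyadenylation sites in introns, and keeps its own mRNA in check through a site in its 3′ end. It is cleared from the nucleus of affected neurons in amyotrophic lateral sclerosis and in many cases of frontotemporal dementia, which is why its removal from a neuron-like line is used to look for the transcripts that depend on it.

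TARDBP itself was at 256, 256 and 256 TPM in the siControl libraries and at 62.3, 63.1 and 67.7 TPM in the siTDP-43 libraries, so that 25.2% of its mRNA remained. STMN2, the stathmin of growing axons, fell from 750.1 ± 82.9 to 100.3 ± 5.28 TPM (SD, n = 3 libraries each). Every library carried the defining mRNAs of noradrenergic neuroblastoma. PHOX2A was at 522 and 407 TPM on average and DBH and GATA3 were present in all 6. The Schwann cell genes SOX10, FOXD3 and CDH19 and the blood and endothelial genes CD3E, CDH5 and HBB were at or near 0 TPM. Mitochondrially encoded RNA took 12 to 14.3% of TPM in siControl and 15.5 to 16.2% in siTDP-43. Since TPM values are shares of a library, this shift lowers the share left to other genes, and its part in the counts below was measured by leaving those genes out.

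At an adjusted p under 0.05 in limma (Benjamini-Hochberg over all 16799 genes, on log2(TPM + 1)), 1073 genes were higher in siTDP-43 and 3390 were lower, which is 6.39% and 20.2% of the genes tested. The groups did not overlap for 7393 genes (44% of those tested). Most differences were small. Of the called genes, 668 higher and 2311 lower differed by 1.2-fold or more (on log2(TPM + 1) values), 58 higher (0.345% of genes) and 63 lower (0.375%) by 2-fold or more, and 5 higher and 4 lower by 4-fold or more. Lower genes made up 76% of all calls. That split depends on the scaling: with median-of-ratios scaling, which sets the median gene to no change, 1967 genes were higher and 2083 lower (51.4% lower), and with the mitochondrial genes left out 1433 were higher and 2729 lower (65.6% lower). All 1073 higher genes and 2083 of the 3390 lower genes kept their call under median-of-ratios scaling. The median log2 fold change of all genes tested was -0.08 as deposited. In bulk RNA, fewer cells of one state and less RNA per cell cannot be told apart.

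**Figure D1:**
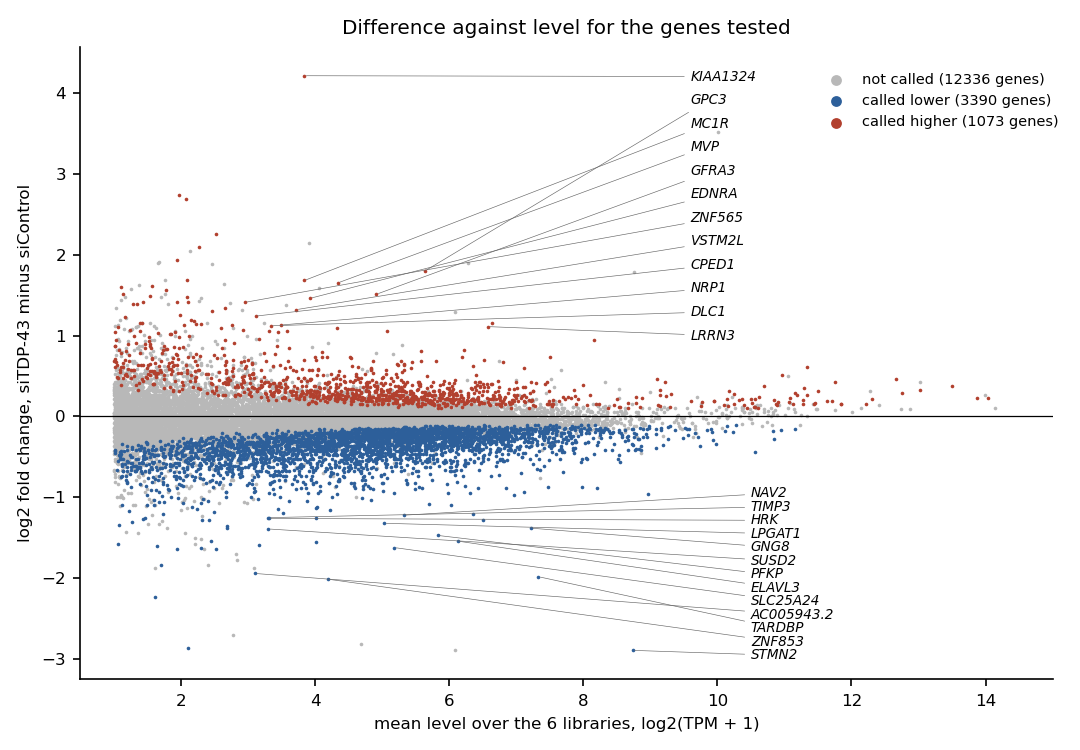
Each point is 1 of the 16799 genes tested, with its mean level over the 6 libraries on the horizontal axis (log2(TPM + 1)) and its log2 fold change, siTDP-43 minus siControl, on the vertical axis. Red marks the 1073 genes called higher, blue the 3390 called lower and grey the rest. The named genes lie away from the band around 0, with KIAA1324 at 4.21 above all others and STMN2 at -2.89 among the lowest.

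Calls were unevenly spread over classes and levels of genes. Among 12602 protein-coding genes, 7.38% were higher and 24.1% lower. Long noncoding genes (2200) gave 3.68% and 10.1%, and pseudogenes (1393) gave 3.45% and 6.6%. The share called rose with level, from 3.87% higher and 8.56% lower at 1 to 5 TPM to 10.3% and 29.3% above 100 TPM, while the median log2 fold change stayed between -0.09 and -0.07 in the 4 level classes. A further 90 genes differed by at least 2-fold without a call. Only 7 of these were protein-coding, 56 were of types other than protein-coding, long noncoding or pseudogene, and in 72 of the 90 the groups overlapped.

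The strongest rise was at a locus that was almost silent in control cells. KIAA1324 (chromosome 1, 109113679-109206781, plus strand, hg38), a transmembrane protein of endosomes and lysosomes also known as ELAPOR1, was at 0.43, 0.6 and 0.37 TPM in siControl and at 26, 25.5 and 27 TPM in siTDP-43. The means differed 56-fold, and on the log2(TPM + 1) scale the change was 4.21 ± 0.09 (SE; limma adjusted p = 5.2e-08). C1orf194, the divergent gene whose annotated 5′ end overlaps that of KIAA1324 on the minus strand (109105951-109113857), was at 0, 0.29 and 0.12 TPM in siControl and 5.61, 7.01 and 6.3 TPM in siTDP-43. Its product belongs to the structural proteins of cilia. A processed pseudogene further along the minus strand, RP5-1065J22.4, moved from 0.143 to 2.26 TPM (adjusted p = 0.00028). All 3 genes were near 0 in each siControl library and present in each siTDP-43 library. They passed the 1 TPM filter only through the siTDP-43 libraries, so this contrast is a description only. Strand-specific counting is not given in the sources used here, so reads in the overlap of KIAA1324 and C1orf194 cannot be assigned to one of them.

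The region between the RefSeq starts of these 2 divergent genes is shown because it lies upstream of both RefSeq starts. The GENCODE span of KIAA1324 given above begins further upstream, so that there the genes overlap, whereas their RefSeq starts are 283 bases apart. It is read from the RefSeq promoter table (GRCh38.p14) on the plus strand, chr1:109113865-109114114, as the 250 bases before the KIAA1324 start at 109114115. The capitals mark the 217 bases that also lie in the promoter window of C1orf194, whose start is at 109113831.
KIAA1324 upstream: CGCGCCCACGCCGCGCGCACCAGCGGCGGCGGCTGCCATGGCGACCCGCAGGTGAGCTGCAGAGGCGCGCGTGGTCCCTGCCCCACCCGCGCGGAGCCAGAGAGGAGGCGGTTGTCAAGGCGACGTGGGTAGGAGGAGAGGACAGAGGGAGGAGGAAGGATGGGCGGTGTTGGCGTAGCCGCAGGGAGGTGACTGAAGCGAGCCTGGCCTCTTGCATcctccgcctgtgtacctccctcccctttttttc
G and C made up 69.6% of this stretch, against a median of 58% over the same 250-base window of 27305 RefSeq genes, and it held 25 CG dinucleotides, against a median of 11. As many or more CG dinucleotides were found in 21.3% of all such windows.

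Other genes with under 1 TPM in siControl and at least 3 TPM in siTDP-43 were few. CFP, which encodes properdin, the positive regulator of the alternative complement pathway, was at 0.4, 0.51 and 0.92 TPM in control and 5.66, 4.63 and 5.01 TPM in knockdown libraries. CDH7, a classical cadherin of the neural crest, was at 0.6, 0.42 and 0.58 TPM in control and 3.35, 3.45 and 3.1 TPM in knockdown libraries. The long noncoding RNA gene FAM182A was at 0.56, 0.44 and 0.37 TPM in control and 3.85, 3.39 and 3.1 TPM in knockdown libraries, and RP11-707M3.3 averaged 0.98 and 5.52 TPM. The rule that chose these 4 genes used the same values, so their separation is a description only. CTD-2574D22.6, a gene model that overlaps MVP and PAGR1 on the same strand, was listed at 0 TPM in the 3 siControl libraries and at 7.62, 4.46 and 5.32 TPM in siTDP-43. RP11-567I13.1 met the same rule at 2.92, 0 and 0 TPM in control and 5.31, 2.14 and 4.09 TPM in knockdown libraries, but its groups overlapped and it kept its call in 7 of 15 alternatives.

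**Figure D2:**
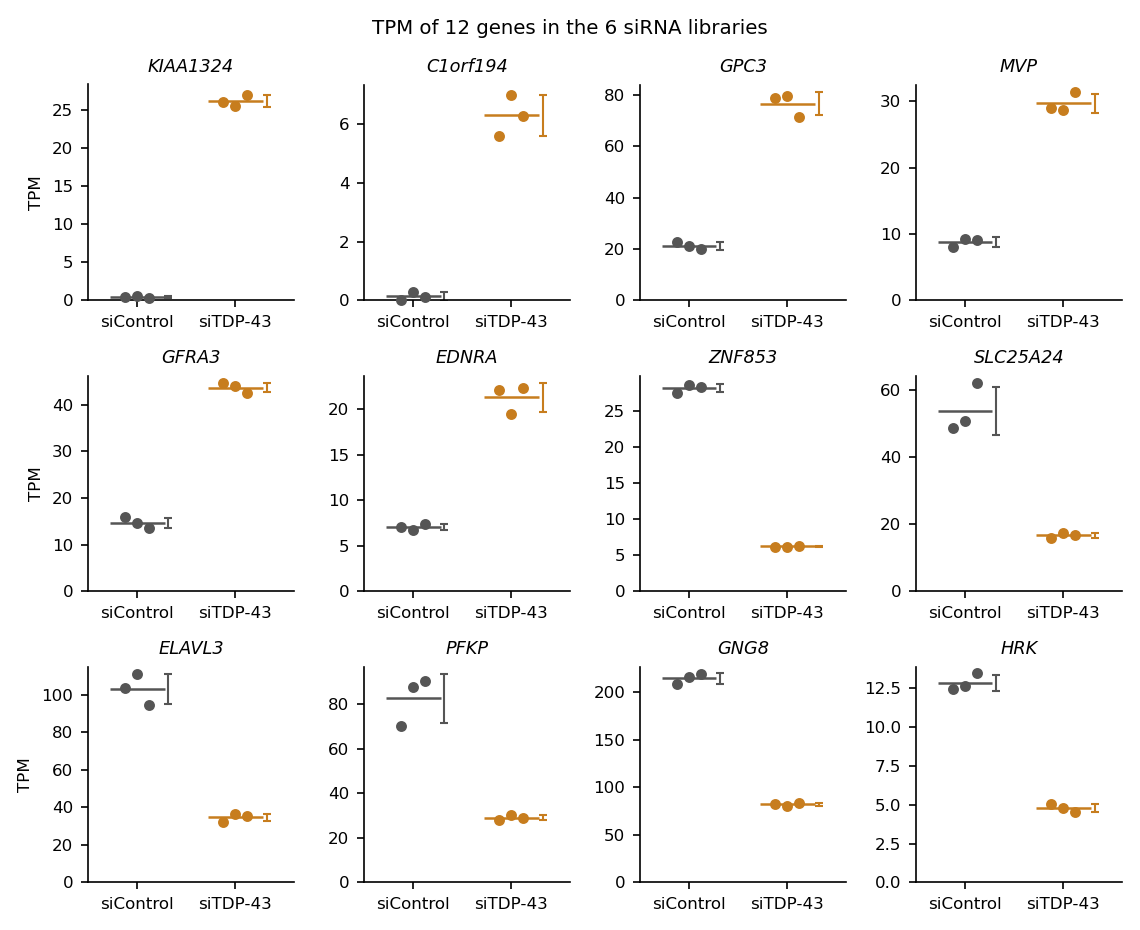
TPM (vertical axes, from 0) of 12 genes in the 3 siControl and 3 siTDP-43 libraries. Points are libraries, lines are group means and the bars beside them are 1 SD. In each panel the 3 siTDP-43 points lie wholly above (KIAA1324, C1orf194, GPC3, MVP, GFRA3, EDNRA) or wholly below (ZNF853, SLC25A24, ELAVL3, PFKP, GNG8, HRK) the siControl points. The genes were chosen by these same values, so the separation is a description only.

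The 12 protein-coding genes that rose furthest while reaching at least 10 TPM held receptors and other genes alike, with KIAA1324 at the top. GPC3, a glypican that carries heparan sulfate chains and modulates growth factor signalling, was at 22.9, 21.1 and 19.95 TPM in siControl and 78.7, 79.5 and 71.5 TPM in siTDP-43 (log2 1.80 ± 0.07, limma adjusted p = 2.3e-06). GFRA3, the artemin co-receptor that works with RET, was at 15.8, 14.7 and 13.5 TPM in control and 44.5, 43.9 and 42.5 TPM in knockdown libraries. EDNRA, the endothelin A receptor, was at 7.1, 6.73 and 7.44 TPM in control and 22.1, 19.5 and 22.4 TPM in knockdown libraries. Each siTDP-43 mean was 2.97 to 3.59 times the siControl mean in these 3 genes. The rule that chose the 12 genes required groups without overlap, so their separation is a description only.

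MC1R, the melanocortin receptor of pigment cells, was at 5.77, 6 and 5.6 TPM in siControl and 19.2, 20.4 and 22.9 TPM in siTDP-43. TCF25 overlaps the annotated span of MC1R on the same strand and TUBB3 starts 415 bases after it. Neither was called as deposited (limma adjusted p = 0.61 and 0.4), though TUBB3 was called higher under median-of-ratios scaling. NRP1, a co-receptor for semaphorins and VEGF, was at 5.78, 5.97 and 6.41 TPM in control and 13.7, 16.9 and 12.9 TPM in knockdown libraries, and LRRN3, a neuronal leucine-rich repeat protein, was at 59.2, 57.4 and 61.9 TPM in control and 133, 123 and 133 TPM in knockdown libraries. LRRN3 was the most abundant of the 12.

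MVP, the main protein of the vault ribonucleoprotein particle, was at 7.97, 9.31 and 9.07 TPM in siControl and 29, 28.7 and 31.3 TPM in siTDP-43 (log2 1.65 ± 0.07, adjusted p = 2.3e-06). On the opposite strand at its 5′ end, the antisense gene AC009133.12 went the other way, from 12.4 to 7.12 TPM (adjusted p = 0.0019), while PAGR1, 277 bases upstream, averaged 49.6 and 49.3 TPM and was not called. Without a stated strand setting, reads of MVP and its antisense partner cannot be told apart. DLC1, a GTPase-activating protein, rose from 5.38 ± 0.776 to 12.8 ± 0.727 TPM and the secreted or membrane proteins VSTM2L and CPED1 from 6.55 to 17.8 and from 4.14 to 11.2 TPM. ZNF565, a KRAB zinc finger gene, rose from 3.24 to 10.3 TPM. ZNF146, which overlaps it on the opposite strand, was not called as deposited (81.2 and 84.3 TPM) but was called higher under median-of-ratios scaling.

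Neuronal RNA regulation, metabolism and signalling were all represented among the 12 protein-coding genes that, with TARDBP and STMN2 set aside, fell furthest while having at least 10 TPM in siControl. ZNF853, a zinc finger gene, was at 27.5, 28.6 and 28.4 TPM in siControl and 6.17, 6.19 and 6.34 TPM in siTDP-43 (log2 -2.01 ± 0.05, limma adjusted p = 1.1e-07), which left 22.1% of its control level. ELAVL3, a neuron-specific RNA-binding protein of the Hu family, was at 103, 111 and 94.9 TPM in control and 32.4, 36.2 and 35.5 TPM in knockdown libraries. Its relative ELAVL4 fell less far, from 229.6 to 125 TPM.

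SLC25A24, the mitochondrial ATP-Mg/phosphate carrier, was at 48.7, 50.7 and 62 TPM in siControl and 15.9, 17.5 and 16.8 TPM in siTDP-43. PFKP, the platelet-type phosphofructokinase of glycolysis, was at 70.1, 87.4 and 90.3 TPM in control and 28.2, 30.1 and 29 TPM in knockdown libraries. SLC25A24 kept 31.1% and PFKP 35.2% of the control mean, and the groups of both were apart, as the rule that chose them required. LPGAT1, an acyltransferase of phospholipid synthesis, fell from 45.8 ± 2.17 to 17.7 ± 1.21 TPM.

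GNG8, a G protein gamma subunit, was at 208, 216 and 219 TPM in siControl and 81.9, 80.2 and 83.4 TPM in siTDP-43. NAV2, a neuron navigator protein that binds microtubules, was at 57.4, 54.9 and 53.4 TPM in control and 21.8, 23.3 and 24.2 TPM in knockdown libraries. GNG8 kept 38.2% and NAV2 41.8% of the control mean. A noncoding gene inside NAV2 on the opposite strand fell as well, from 8.20 to 2.63 TPM (adjusted p = 1.9e-05).

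HRK, a BH3-only activator of cell death in neurons, was at 12.4, 12.7 and 13.5 TPM in siControl and 5.07, 4.77 and 4.52 TPM in siTDP-43. RNFT2, on the opposite strand with its 3′ end 2513 bases from that of HRK, fell from 9.35 to 4.87 TPM as well (adjusted p = 0.00029). TIMP3, a matrix-bound inhibitor of metalloproteinases, fell from 13 to 4.88 TPM, and SUSD2, a membrane protein, from 13.3 to 4.46 TPM. The call on AC005943.2, a gene model that overlaps MBD3 and UQCR11, was the weak one in this set. It was at 12.2, 12.1 and 11.1 TPM in control and 0, 5.8 and 4.43 TPM in knockdown libraries, and it kept its call in 7 of 16 alternatives. Neither MBD3 nor UQCR11 was called as deposited, though MBD3 was called higher under median-of-ratios scaling.

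Because TDP-43 binds UG repeats, the longest protein-coding transcript of each gene (GENCODE release 29) was searched on its sense strand for 4 or more TG units in a row, TGTGTGTG, anywhere in the exons. Such a run was present in 24% of 929 genes called higher, in 21.7% of 3037 called lower and in 21.3% of 8558 not called. Median transcript lengths were 3107, 3665 and 3361 bases. Among genes that differed by at least 2-fold it was present in 9 of 35 higher and 10 of 39 lower (25.7% and 25.6%). Since longer transcripts hold more repeats, the shares were also taken by length. In transcripts of 2000 to 4000 bases a run was present in 18.5% of higher, 15.3% of lower and 15.9% of not called genes, and at 4000 to 8000 bases in 36.8%, 29.7% and 29.2%. Below 2000 bases the shares were 10.4%, 6.93% and 7.04%, and above 8000 bases 51.6%, 47.2% and 51.7%. The share was thus higher in raised than in not called genes in 3 of the 4 length classes, a difference that was not tested, and introns were not searched.
The sites of the 24 named genes that held a run (3 of 12 raised and 2 of 11 lowered with a protein-coding transcript) are shown in a 30-base window, sense strand, with the longest uninterrupted TG run in capitals.
HRK: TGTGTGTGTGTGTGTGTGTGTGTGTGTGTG
MC1R: gcacattTGTGTGTGTGTGTGTGcctgtgt
CPED1: ctgtgtgcgTGTGTGTGTGTGtctctctct
EDNRA: cttttactagTGTGTGTGTGtatatatata
PFKP: catcaccaaccTGTGTGTGatcggcgggga
The HRK window is part of a run of 24 TG units in its 3′ UTR (chr12:116858593-116858622, minus strand). The run of 8 units in MC1R (window chr16:89914157-89914186) and that of 6 units in CPED1 (window chr7:120988761-120988790) lie in 5′ UTRs, the MC1R one in a longer isoform. EDNRA has 5 units in its 3′ UTR (window chr4:147543975-147544004) and PFKP has 4 in its coding sequence (window chr10:3101454-3101483). All coordinates are hg38 and bound the 30-base windows shown, not the runs. ELAVL3, GNG8 and GPC3 held no run of 4 units in the transcript searched.

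Gene families and pathways were then described through 51 lists, by the number of members called and the median log2 fold change. The background over all genes tested was 6.39% higher and 20.2% lower as deposited. For counts under median-of-ratios scaling the background was 11.7% higher and 12.4% lower. The largest share of lower members was in mitosis (69.2%), followed by kinesins (52.5%), tubulins (52.4%) and MAP kinase output (51.6%). Integrins had no call among 15 members tested, though 2 were lower in a fit on the 6 siRNA libraries alone. The 6 largest shares of higher members, from 20 to 27.9%, were in neural transcription factors, intermediate filaments, heparan sulfate proteoglycans, extracellular matrix, small nucleolar RNA host genes and catecholamine handling. Called members named below were mostly chosen by their adjusted p in these same data, so any separation of their groups is a description only.

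**Figure D3:**
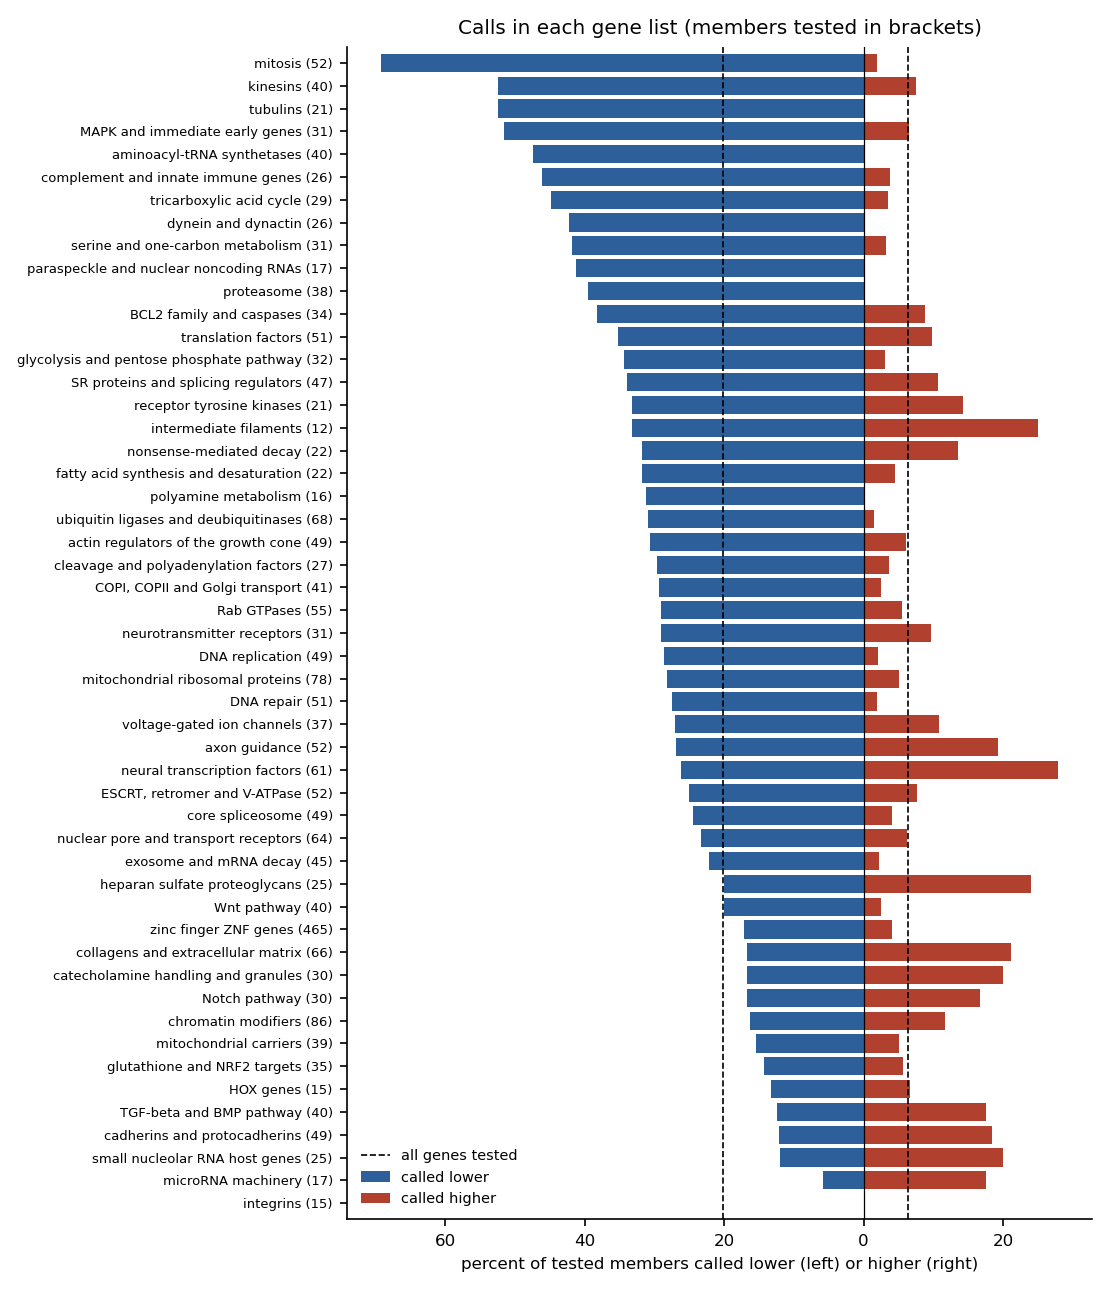
Bars give the percent of tested members of each list called lower (blue, to the left) and higher (red, to the right), and brackets give the number of members tested. The dashed lines mark the 20.2% lower and 6.39% higher of all genes tested. Mitosis reaches 69.2% lower, and neural transcription factors reach 27.9% higher.

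Every call among tubulin genes was a fall on the deposited scale. Of 21 tubulins and tubulin-folding genes tested, 11 were lower and none higher (median log2 -0.17), and 6 of the 7 beta tubulins were among them. TUBB2A, a major neuronal isotype, was at 124, 138 and 137 TPM in siControl and 92, 94.2 and 85.6 TPM in siTDP-43 (limma adjusted p = 0.00064). TUBA1A, the principal alpha tubulin of developing neurons, was at 2058, 2098 and 1910.4 TPM in control and 1645, 1742 and 1616 TPM in knockdown libraries. TUBB3, the neuron-restricted beta isotype, was the exception among beta tubulins, at 435, 452 and 433 TPM in control and 436, 481 and 450.1 TPM in knockdown libraries without a call. TBCD, a tubulin-folding cofactor, fell from 95.2 to 71.2 TPM. Alpha tubulin genes are near-identical, so the split of reads among TUBA1A, TUBA1B and TUBA1C is uncertain. Under median-of-ratios scaling 7 of the 21 were lower and 3 were higher, TUBB3 among them.

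Genes for motor proteins of both directions were called. Of 40 kinesin genes, which mostly walk towards microtubule plus ends, 21 were lower and 3 higher (median -0.20), and with median-of-ratios scaling 14 were lower and 6 higher. KIF5C, a neuronal heavy chain of conventional kinesin, was at 89.8, 95.6 and 103 TPM in siControl and 52.3, 53.7 and 51 TPM in siTDP-43 (log2 -0.86 ± 0.05, adjusted p = 1.5e-05). KIF21A was at 166, 167 and 162 TPM in control and 99.8, 99 and 104 TPM in knockdown libraries, and KIF1A, the carrier of synaptic vesicle precursors, averaged 53 and 35.1 TPM (adjusted p = 0.001). In KIF5C and KIF21A, which were named for their small adjusted p, the groups were far apart relative to the spread within them. KIF5A, the conventional kinesin mutated in familial motor neuron disease, was not called (22.3 and 22.8 TPM). The 3 higher members were KIFC3, from 7.78 to 12.6 TPM, KIF26B, from 29.2 to 36.9 TPM, and KIF1C, from 23.3 to 27.4 TPM, and KIF1C kept its call in 10 of 16 alternatives.

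Of 26 dynein and dynactin genes, which form the minus-end motor and its cargo adaptor, 11 were lower and none higher (median -0.13), and 7 were lower and 2 higher under median-of-ratios scaling. DYNC1I2, the ubiquitous intermediate chain, fell from 127 ± 7.53 to 96.9 ± 2.64 TPM and ACTR1A, the filament subunit of dynactin, from 145 to 111 TPM. The heavy chain DYNC1H1 (219.9 and 217 TPM) and the large dynactin subunit DCTN1 (108 and 92.9 TPM) were not called.

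**Figure D4:**
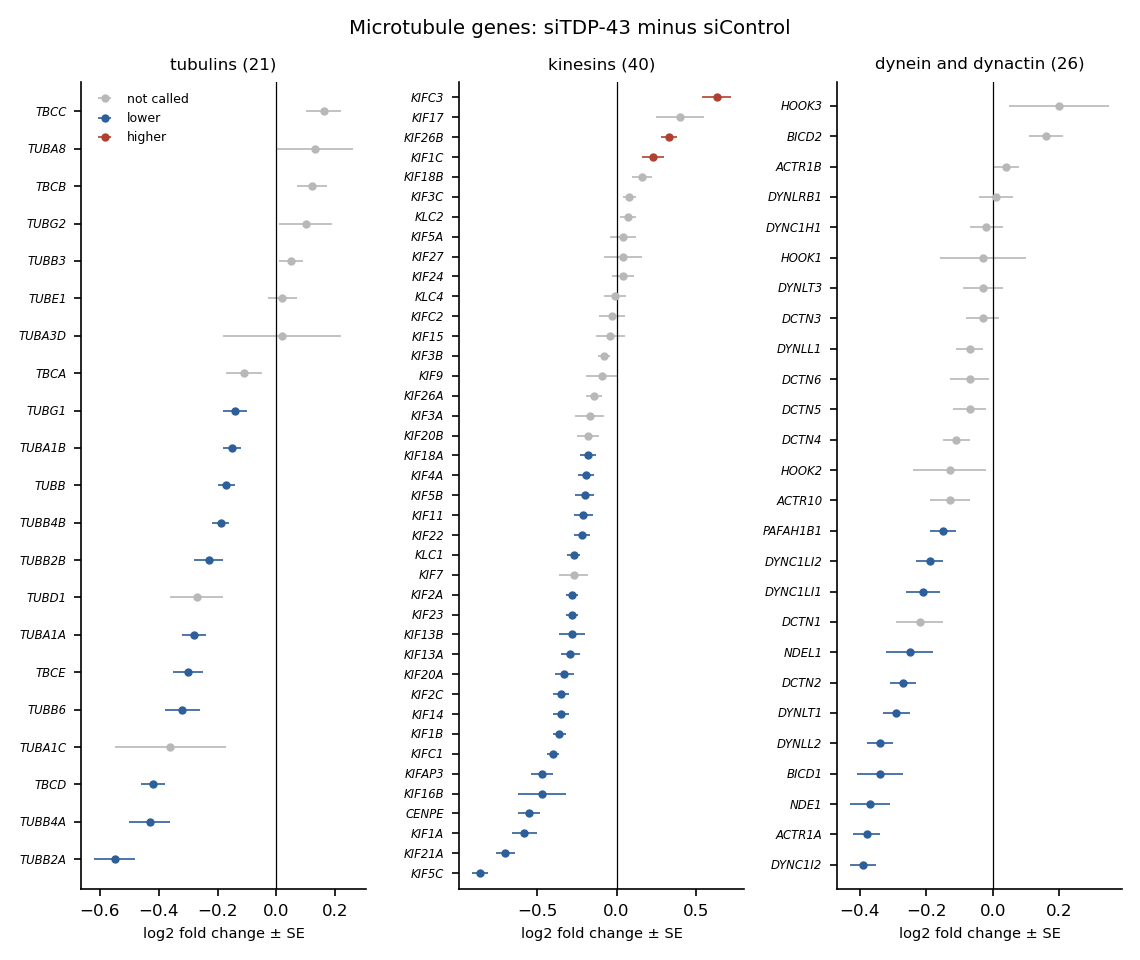
Log2 fold change, siTDP-43 minus siControl, with its standard error, for the tested tubulin (21), kinesin (40) and dynein and dynactin (26) genes, ordered within each panel. Blue is called lower, red called higher and grey not called. KIF5C at -0.86 and TUBB2A at -0.55 are the lowest in their panels, and KIFC3 at 0.63 is the highest kinesin.

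Most cell division genes were lower. Of 52 genes of mitosis, 36 were lower and 1, the checkpoint kinase WEE1, higher (69.2% lower, median -0.28), and 30 were lower under median-of-ratios scaling. Both roles were involved, with 20 of 26 kinases and checkpoint genes and 16 of 26 kinetochore, spindle and condensin genes. PRC1, which crosslinks the midzone of the spindle, was at 233, 226 and 212 TPM in siControl and 163, 162 and 160.4 TPM in siTDP-43 (limma adjusted p = 7.9e-05). PTTG1, or securin, averaged 201 and 155 TPM, and CENPU, of the inner kinetochore, 108 and 86.7 TPM. No member fell by as much as 2-fold, and the lowest log2 fold change was -0.51. The mitotic kinesins followed, with 10 of 13 lower and none higher.

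S-phase genes stood nearer to the background. Of 49 DNA replication genes 14 were lower and 1 higher (median -0.11), and of 51 DNA repair genes 14 were lower and 1 higher (median -0.12), lower counts that came to 8 and 7 under median-of-ratios scaling. Both were 9 without siTDP-43 replicate 2 or replicate 3, and the repair count was 9 without siControl replicate 2 and 8 without siControl replicate 3. UNG, the uracil glycosylase of base excision repair, fell from 38.3 to 27.6 TPM and DDB2, a damage sensor and p53 target, from 36.7 to 24.9 TPM. XRCC5, the large Ku subunit, was at 382, 359 and 357 TPM in control and 286, 281 and 259.8 TPM in knockdown libraries. PMS2 fell from 32 to 21.9 TPM, a value made uncertain by near-identical pseudogenes.

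Among the other cytoskeletal genes, the neuronal intermediate filaments did not move as one. NEFM, the medium neurofilament, was at 29.5, 28.7 and 32.5 TPM in siControl and 47.2, 46.4 and 49.9 TPM in siTDP-43 (limma adjusted p = 0.0005), while PRPH, peripherin, was at 25.4, 26.7 and 29.9 TPM in control and 18.4, 18.2 and 22.6 TPM in knockdown libraries (adjusted p = 0.0059). NES, the nestin filament of progenitors, fell from 120.0 to 85.3 TPM. Of 12 intermediate filament genes, 3 were higher and 4 lower, and 5 and 3 under median-of-ratios scaling.

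Actin regulators gave 15 lower and 3 higher of 49 (median -0.06), and 14 lower and 9 higher under median-of-ratios scaling. TMOD2, the neuronal tropomodulin that caps filament ends, was at 21.3, 20.9 and 21.6 TPM in control and 10.01, 8.46 and 9.28 TPM in knockdown libraries, and ACTR2, a core subunit of the Arp2/3 nucleator, at 171, 180.4 and 189 TPM in control and 95.1, 94.7 and 92.2 TPM in knockdown libraries. TMOD2 kept 43.6% and ACTR2 52.2% of the control mean. FSCN1, the bundler of growth cone filopodia, fell from 434 to 301 TPM and KALRN, an exchange factor of dendritic spines, from 26.3 to 16.6 TPM. WASF1, of the WAVE complex, rose from 92.5 to 119.6 TPM.

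Guidance and adhesion genes moved in both directions. Of 52 axon guidance genes, 10 were higher and 14 lower (19.2% and 26.9%, median -0.11), and under median-of-ratios scaling 12 and 10. Among receptors, NRP1, PLXNA1 (from 30.8 to 45.8 TPM), PLXNA2 (from 41 to 58.5 TPM) and the netrin receptor UNC5B (from 84.1 to 111 TPM) rose, while PLXNA4 fell from 12.3 to 7.41 TPM and PLXNC1 from 6.03 to 3.04 TPM. Among ligands, EFNB2 rose from 53.9 to 68.8 TPM and SEMA3C, a secreted semaphorin, was at 21, 22.5 and 24.4 TPM in control and 12.7, 11.4 and 13 TPM in knockdown libraries. The intracellular collapsin response mediators fell or were not called. DPYSL3 was at 309, 316 and 312 TPM in control and 213, 221 and 218 TPM in knockdown libraries, and 3 of 8 effectors were lower with none higher.

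Adhesion genes were counted by subfamily. Of 11 protocadherins and related large cadherins outside the gene clusters, 7 were higher and 1, CELSR2, lower (median 0.24). Of 34 clustered protocadherins, none was higher and 4 were lower (median -0.05). PCDH9 was at 0.62, 0.66 and 0.65 TPM in siControl and 1.98, 1.82 and 1.85 TPM in siTDP-43, and FAT1, a giant atypical cadherin, at 102, 99.9 and 93.5 TPM in control and 117, 116 and 116 TPM in knockdown libraries. The groups of both were separate, as in 44% of all genes tested, and both genes were named for their adjusted p. PCDH9 passed the 1 TPM filter only through its siTDP-43 libraries, so its separation is a description only. FAT1 was well expressed in both groups. CDH2, N-cadherin, fell from 76.5 to 62.3 TPM and CDH24 rose from 18.6 to 29 TPM. Clustered protocadherins share sequence between neighbours, so their single values are uncertain.

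**Figure D5:**
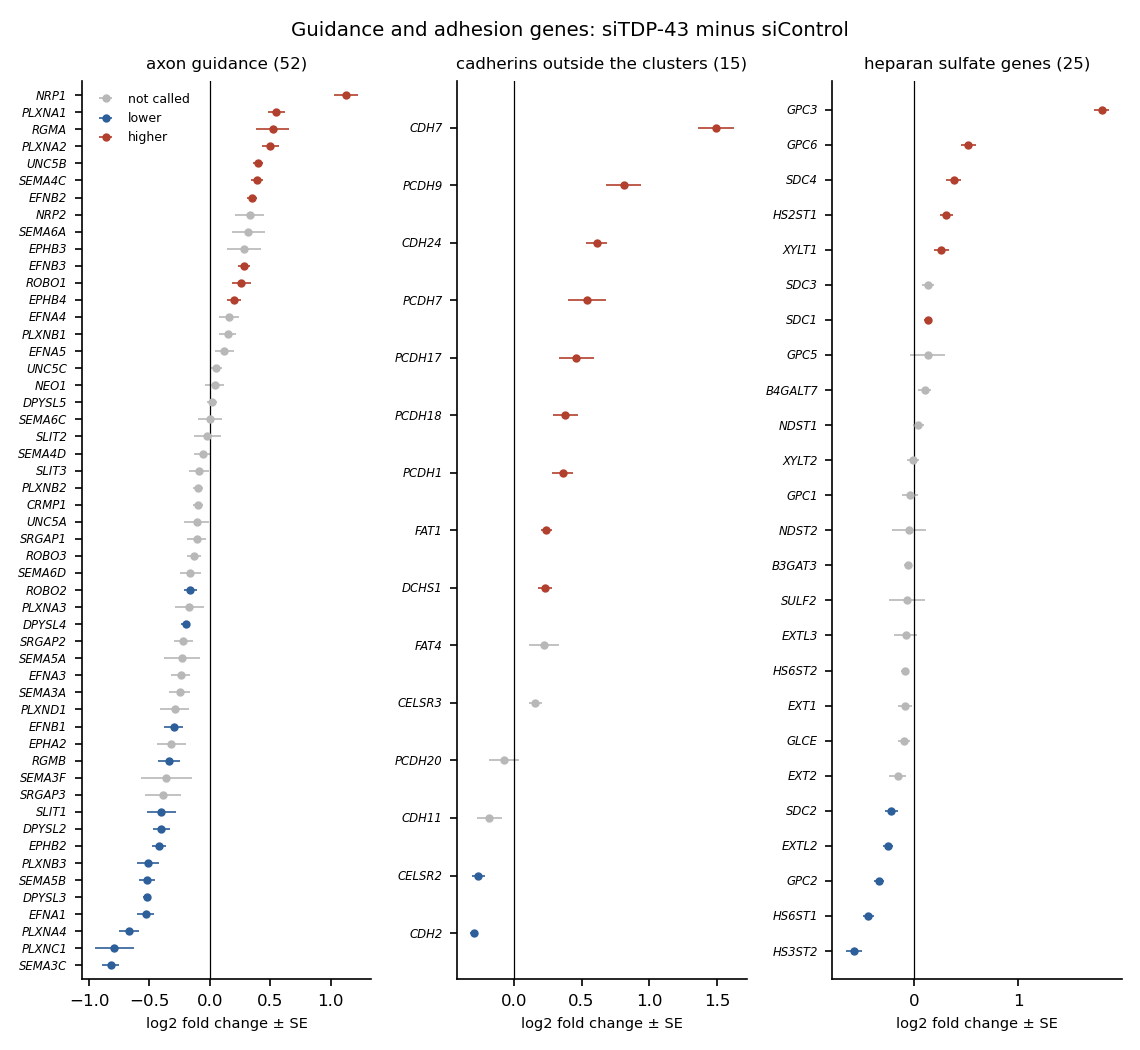
Log2 fold change, siTDP-43 minus siControl, with its standard error, for 52 axon guidance genes, 15 cadherins and protocadherins outside the clusters and 25 heparan sulfate genes. Blue is called lower, red called higher and grey not called. Calls fall on both sides of 0 in the outer panels, whereas 9 of the 15 cadherins in the middle panel are higher and 2 are lower.

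Matrix genes moved in both directions. Of 66 genes of the extracellular matrix, 14 were higher and 11 lower (21.2% and 16.7%, median 0.03), and 4 of 17 collagens were higher with none lower. MMP2, gelatinase A, was at 198, 205 and 179.9 TPM in siControl and 349, 373 and 396 TPM in siTDP-43 (log2 0.94 ± 0.06, limma adjusted p = 2.2e-05). FBN1, fibrillin, was at 11.7, 10.7 and 13.5 TPM in control and 22.1, 19.5 and 19.8 TPM in knockdown libraries, and COL4A2, of basement membranes, at 13.3, 13 and 13.7 TPM in control and 19.5, 18.5 and 20 TPM in knockdown libraries. In contrast TIMP3 fell, RELN, the reelin glycoprotein, was at 12.2, 11.7 and 12.8 TPM in control and 6.81, 6.62 and 6.39 TPM in knockdown libraries, and TNC, tenascin, fell from 6.83 ± 2.15 to 2.37 ± 0.357 TPM. The lower count was 7 both under median-of-ratios scaling and without siTDP-43 replicate 1.

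Some markers of fibroblasts moved with the matrix genes. Their summed level over 8 genes was 164.5 to 168.3 TPM in siControl and 211.4 to 219.3 TPM in siTDP-43, and 3 of 6 tested members were higher, COL3A1 (from 28.7 to 45.1 TPM), LUM (from 33.3 to 50.6 TPM) and PDGFRB (from 22.9 to 26.8 TPM). DCN, decorin, was at 2.64 and 1.57 TPM without a call, and 1 marker was lower in the fit on the 6 siRNA libraries alone. The defining fibroblast collagen COL1A2 was at 0.207 and 0.49 TPM and COL1A1 at 2.95 and 3.53 TPM. The part of such expression in the matrix result was not tested.

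Heparan sulfate proteoglycans, which hold growth factors at the cell surface, had 6 higher and 5 lower of 25. The core proteins held 4 of the 6 rises. GPC6 rose from 14.5 to 21.3 TPM and SDC4, a syndecan, from 8.59 to 11.5 TPM beside GPC3, while GPC2 fell from 63.5 to 50.1 TPM. Among the enzymes, HS3ST2 and HS6ST1, which add sulfate groups, fell from 17.2 to 11.2 and from 34.8 to 25.3 TPM and HS2ST1 rose from 23.7 to 29.7 TPM.

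Signalling pathways were split by role. In the TGF-beta and BMP pathway, 7 of 40 genes were higher and 5 lower (median -0.02), and 11 were higher under median-of-ratios scaling. The BMP target genes ID1 and ID2, inhibitors of neural bHLH factors, both rose. ID1 was at 52.5, 48.9 and 57.1 TPM in control and 97.3, 82.1 and 103 TPM in knockdown libraries and ID2 at 87.2, 75.8 and 92.3 TPM in control and 142, 126 and 139 TPM in knockdown libraries. The BMP transducers SMAD1 and SMAD5 fell, from 26 to 18.6 and from 33.9 to 24.3 TPM. Of 14 transducers and targets, ID1, ID2 and the inhibitory SMAD6 were the 3 higher and SMAD1, SMAD5 and SKI the 3 lower. None of 10 receptors was lower.

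In the Notch pathway, 5 of 30 genes were higher and 5 lower. DLK1, an imprinted noncanonical ligand and one of the most abundant mRNAs of the line, was at 2045, 2039 and 2055 TPM in siControl and 3143, 3234 and 3024 TPM in siTDP-43 (limma adjusted p = 2.4e-05). The nuclear target HEY1 was at 37.7, 40.9 and 42.4 TPM in control and 54.6, 52 and 51.8 TPM in knockdown libraries, while HES4 was at 16.6, 17.1 and 21.9 TPM in control and 9.93, 10.8 and 9.93 TPM in knockdown libraries. NOTCH2 fell from 15.7 to 10.03 TPM. Under median-of-ratios scaling 9 were higher and 2 lower, and without siTDP-43 replicate 2, 3 were lower.

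The Wnt pathway lay at the background, with 8 of 40 lower and 1 higher (20% and 2.5%), though 5 were higher with the replicate number as a block and 7 under median-of-ratios scaling. DKK2, a secreted Wnt antagonist, was at 6.38, 5.55 and 6.47 TPM in control and 2.47, 2.07 and 2.93 TPM in knockdown libraries, and the ligand WNT6 at 5.7, 5.24 and 5.86 TPM in control and 2.63, 2.88 and 2.73 TPM in knockdown libraries. FZD5, a Frizzled receptor, rose from 3.94 to 6.64 TPM.

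Receptor tyrosine kinases and their co-receptors had 3 of 21 higher and 7 lower (median -0.18). RET, the signalling receptor for GDNF family ligands, was at 200.4, 211 and 210.2 TPM in siControl and 152, 163 and 159 TPM in siTDP-43, opposite in direction to its co-receptor GFRA3. PDGFRA fell from 32.1 to 22.8 TPM, EGFR from 17.7 to 13.1 TPM and the insulin receptor INSR from 6.27 to 3.17 TPM. DDR2 and PDGFRB were the other 2 higher members, and without siTDP-43 replicate 1 a single member was higher.

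Genes downstream of MAP kinase signalling were mostly lower. Of 31 immediate early and feedback genes, 16 were lower and 2 higher (51.6% and 6.45%, median -0.25), and 9 were lower under median-of-ratios scaling. Leaving out siTDP-43 replicate 1 or 2 gave 9 and 10. JUNB was at 23.2, 23.9 and 23.1 TPM in siControl and 17.2, 16.8 and 17 TPM in siTDP-43 (limma adjusted p = 0.00012). MYC was at 34.9, 35.2 and 37.3 TPM in control and 27.5, 25.7 and 27.8 TPM in knockdown libraries, and the ERK phosphatase DUSP4 at 23.5, 23.6 and 25.4 TPM in control and 17, 17 and 18.5 TPM in knockdown libraries. The groups of each of the 3 were separate. ETV1, an ETS factor, rose from 19.2 to 27.6 TPM.

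Called genes of excitability, like called genes of all kinds, were more often lower than higher on the deposited scale. Of 37 voltage-gated channel genes 10 were lower and 4 higher (27% and 10.8%, against 20.2% and 6.39% of all genes). Under median-of-ratios scaling 8 were lower and 6 higher. The 10 lower as deposited divide into 4 of 7 sodium, 4 of 10 calcium and 2 of 18 potassium genes. These differences between subfamilies were not tested. CACNA2D1 and CACNA2D2, alpha2delta subunits of calcium channels, both fell. CACNA2D1 was at 84.7, 83.5 and 99.1 TPM in control and 60.5, 57.3 and 61.4 TPM in knockdown libraries, and CACNA2D2 at 89.7, 85.1 and 75.7 TPM in control and 51.7, 55 and 50.3 TPM in knockdown libraries.

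Of 31 genes in the neurotransmitter receptor list, 9 were lower and 3 higher (29% and 9.68%, median -0.03). The 3 higher were the receptor genes MC1R and GRIA2 and GAL, which encodes the neuropeptide galanin and not a receptor. Under median-of-ratios scaling 7 were lower and 5 higher, and 5 were lower without siTDP-43 replicate 3. Acetylcholine receptor genes supplied 4 of the 9. CHRNA3, the nicotinic alpha subunit of autonomic ganglia, was at 456, 474 and 402 TPM in siControl and 302, 308 and 289 TPM in siTDP-43, and CHRNA7, which forms homomeric receptors, at 54.5, 60.7 and 56.2 TPM in control and 39.7, 36.2 and 37.5 TPM in knockdown libraries. Partial duplicates of CHRNA7 make its value less certain. DRD2, the dopamine D2 receptor, fell from 28.4 to 17.5 TPM, and GRIA2, an AMPA receptor subunit, rose from 14.6 to 19.9 TPM.

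Genes of catecholamine handling and secretory granules rose and fell in near equal number, with 6 higher and 5 lower of 30 (20% and 16.7%). CHGA, chromogranin A, was at 1603, 1654 and 1683 TPM in siControl and 2267, 2399 and 2347 TPM in siTDP-43 (limma adjusted p = 0.00037). QDPR, which regenerates the cofactor of tyrosine hydroxylase, rose from 73.7 to 99.2 TPM, and CYB561, the electron carrier of the granule membrane, from 515 to 615 TPM. The peptide NPY was at 209, 207 and 197 TPM in control and 129.8, 136 and 136 TPM in knockdown libraries, whereas galanin (GAL) was at 131, 131 and 140.2 TPM in control and 182, 186 and 169 TPM in knockdown libraries. The 2 neuropeptides thus moved in opposite directions. DDC, aromatic amino acid decarboxylase, fell from 216 to 175 TPM. Under median-of-ratios scaling 11 were higher and 4 lower.

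Transcription factors of the neural lineage moved in both directions. Of 61 tested, 17 were higher and 16 lower (27.9% and 26.2%, median -0.02). NEUROG2, a proneural factor, was at 114, 112 and 114 TPM in siControl and 48.7, 51.1 and 46.6 TPM in siTDP-43 (log2 -1.20 ± 0.05, limma adjusted p = 2.3e-06). HAND1, a sympathoadrenal bHLH factor, was at 108, 104 and 114 TPM in control and 163, 162 and 171 TPM in knockdown libraries. The bHLH factors thus held both the largest fall and a clear rise. SOX9, a neural crest and glial regulator, was at 2.14, 1.72 and 2.37 TPM in control and 5.52, 5.99 and 5.83 TPM in knockdown libraries. NFIB fell from 43.8 to 28.3 TPM, TCF4 from 298 to 206 TPM and PBX3 from 68.4 to 48.7 TPM. GATA3 rose from 121 to 156 TPM and PHOX2A fell to 78% of control, so these defining factors of the line moved in opposite directions.

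The remaining nuclear families stayed nearer the background. Chromatin modifiers had 10 higher and 14 lower of 86, with MTA2, of the NuRD complex, at 124, 127 and 121 TPM in control and 79.5, 83 and 80.5 TPM in knockdown libraries, and with 19 higher and 9 lower under median-of-ratios scaling. HDAC6, the tubulin deacetylase, fell from 44.4 to 30.9 TPM and TET3 rose from 17.6 to 21.5 TPM. Of 465 ZNF genes, 19 were higher and 80 lower (4.09% and 17.2%), and 39 were called in each direction under median-of-ratios scaling. Without siTDP-43 replicate 3 the ZNF counts were 10 and 52. HOX genes gave 1 higher and 2 lower of 15.

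Neuronal RNA-binding proteins held the largest falls among splicing regulators. SR proteins and splicing regulators had 16 lower and 5 higher of 47 (median -0.11), and 9 and 6 under median-of-ratios scaling. ELAVL4, or HuD, was at 235, 232 and 222 TPM in siControl and 122, 127 and 126 TPM in siTDP-43, and MBNL2, a muscleblind factor, at 27.3, 27.2 and 26.3 TPM in control and 19.8, 19.3 and 19.2 TPM in knockdown libraries. QKI rose from 75.6 to 97.5 TPM, and RBFOX2 was called higher but not with the replicate number as a block (adjusted p = 0.064). The higher count was 3 without any one library other than siControl replicate 2. No SR protein was higher and 6 of 16 were lower, with 1 lower under median-of-ratios scaling. The core spliceosome had 12 lower and 2 higher of 49 (median -0.08, the same as all genes), and 3 lower under median-of-ratios scaling or 6 without siTDP-43 replicate 2.

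TDP-43 restrains premature polyadenylation, so the cleavage and polyadenylation factors were listed apart. Of 27, 8 were lower and 1 higher (median -0.06), a share of 29.6% lower. NUDT21, the small subunit of cleavage factor I, was at 121, 121 and 132 TPM in siControl and 104, 105 and 103 TPM in siTDP-43, and CPSF1 rose from 69.7 to 84.3 TPM, a call kept in 12 of 16 alternatives. The lower count was 2 under median-of-ratios scaling and 5 without siTDP-43 replicate 2. No member fell by more than 0.33 on the log2 scale, the value of the kinase CDK13.

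RNA decay genes had calls in both directions. Nonsense-mediated decay had 7 lower and 3 higher of 22 (31.8% and 13.6%), and 3 in each direction under median-of-ratios scaling, with UPF2 among the higher at 15.6 and 17.9 TPM, and leaving out siControl replicate 1 or any one siTDP-43 library left 1 higher. The exosome and other decay enzymes had 10 lower and 1 higher of 45 (22.2% and 2.22%), and 7 in each direction under median-of-ratios scaling, with the nuclear exonuclease XRN2 falling from 110.2 to 88.3 TPM and DIS3, the catalytic exosome subunit, from 51.4 to 40.1 TPM. The microRNA pathway had 3 higher and 1 lower of 17 (17.6% and 5.88%). LIN28B, the inhibitor of let-7 maturation, was at 24.8, 27.4 and 29.4 TPM in siControl and 36.1, 36.6 and 36.7 TPM in siTDP-43, and AGO4 rose from 11.5 to 15.9 TPM.

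Noncoding RNAs of the nucleus were listed next. Of 25 host genes of small nucleolar RNAs, 5 were higher and 3 lower (20% and 12%, median 0.07). SNHG5 was at 469, 456 and 453 TPM in siControl and 649, 607 and 643 TPM in siTDP-43, GAS5 at 523, 536 and 471 TPM in control and 675, 702 and 671 TPM in knockdown libraries, and SNHG17 rose from 28.8 to 47.3 TPM. SNHG5 and GAS5 belong to the host genes whose spliced RNA is cleared by nonsense-mediated decay. SNHG16 fell from 143 to 105 TPM, and 1 host gene was lower without siControl replicate 3, siTDP-43 replicate 1 or siTDP-43 replicate 2. Of 17 genes of paraspeckle proteins and nuclear RNAs, 7 were lower and none higher, and 4 were lower under median-of-ratios scaling. These were 4 of 7 RNAs and 3 of 10 proteins, among them TUG1 (from 186 to 154 TPM) and the paraspeckle protein SFPQ (from 537 to 452 TPM).

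Every called gene for an enzyme that charges tRNAs was lower. Of 40 aminoacyl-tRNA synthetases, 19 were lower and none higher (47.5%, median -0.15), with 15 of 23 cytosolic and 4 of 17 mitochondrial genes. YARS, the tyrosyl enzyme, was at 82.5, 83.6 and 82.9 TPM in siControl and 65.3, 65.4 and 63.6 TPM in siTDP-43 (limma adjusted p = 0.00011), and GARS, the glycyl enzyme, at 228, 224 and 229 TPM in control and 188, 180.0 and 181 TPM in knockdown libraries. Their groups did not overlap, and they kept 78% and 80.6% of the control mean. With median-of-ratios scaling 9 were lower and still none higher.

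Other translation genes were mixed. Of 51 translation factors 18 were lower and 5 higher, and these came to 7 and 9 under median-of-ratios scaling. Of 36 initiation factors, 13 were lower and 1 higher, with EIF2S2 falling from 58.9 to 46.9 TPM. Of 15 elongation and release factors, 5 were lower and 4 higher, with EEF2 rising from 1036 to 1145 TPM. Without siTDP-43 replicate 3 the lower count was 11. EIF3C fell from 615 to 469 TPM, but a near-identical copy, EIF3CL, makes that value uncertain. Mitochondrial ribosomal proteins had 22 lower and 4 higher of 78, and 9 and 8 under median-of-ratios scaling. Without siControl replicate 2, siControl replicate 3 or siTDP-43 replicate 3, 2 were higher. MRPL3 stood apart at 123, 121 and 122 TPM in siControl and 73.7, 72.5 and 73.7 TPM in siTDP-43 (log2 -0.73 ± 0.03).

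Genes of protein breakdown were also lower in part. Of 38 proteasome genes 15 were lower and none higher (39.5%, median -0.13), with 7 lower and none higher under median-of-ratios scaling. PSME1, of the interferon-inducible activator, was at 107, 108 and 118 TPM in siControl and 80.4, 82.5 and 81.4 TPM in siTDP-43, and the deubiquitinase subunit PSMD14 fell from 99.6 to 79.1 TPM. Of 68 ubiquitin ligases and deubiquitinases 21 were lower and 1 higher, and 10 and 2 under median-of-ratios scaling. UBE2N, the conjugating enzyme for lysine-63 chains, fell from 233 to 175 TPM.

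In central carbon metabolism, falls outnumbered rises. Of 29 genes of the tricarboxylic acid cycle and its feeders, 13 were lower and 1 higher (44.8%, median -0.10), and 8 were lower under median-of-ratios scaling. MDH1, the cytosolic malate dehydrogenase, was at 187, 200.3 and 189 TPM in siControl and 121, 120.4 and 125 TPM in siTDP-43 (limma adjusted p = 2.7e-05), and OGDH, of the oxoglutarate dehydrogenase complex, at 41.1, 41 and 40.1 TPM in control and 30.1, 29.7 and 27.9 TPM in knockdown libraries. PDHA1, of pyruvate dehydrogenase, fell from 124 to 98 TPM. Glycolysis and the pentose phosphate pathway had 11 lower and 1 higher of 32, and 6 and 7 under median-of-ratios scaling. Without siTDP-43 replicate 3, 7 were lower. PFKP led them, and the hexokinases HK1 and HK2 fell from 80.6 to 62.8 and from 59.6 to 44.7 TPM.

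Lipid and amino acid synthesis genes included larger single falls. SCD, the stearoyl desaturase, was at 158, 165 and 171 TPM in siControl and 83.6, 88.3 and 77.8 TPM in siTDP-43 (log2 -0.97 ± 0.05, limma adjusted p = 7.5e-06), within a fatty acid list of 7 lower and 1 higher of 22. ACSL1, a long-chain acyl-CoA synthetase, was at 36.1, 35.9 and 32.1 TPM in control and 19.3, 19.4 and 17.4 TPM in knockdown libraries. Of 31 serine and one-carbon genes, 13 were lower and 1 higher (median -0.17). ASS1, argininosuccinate synthase, was at 6.58, 7.02 and 7.67 TPM in control and 1.12, 2.08 and 2.26 TPM in knockdown libraries. PHGDH, the entry enzyme of serine synthesis, fell from 88.5 to 66.2 TPM and ASNS, asparagine synthetase, from 82.8 to 63.9 TPM. Under median-of-ratios scaling 11 were lower and 5 higher.

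Carriers and redox genes were called at or below the background rate. Mitochondrial carriers had 6 lower and 2 higher of 39, and 3 and 5 under median-of-ratios scaling, with SLC25A24 far below the rest and the adenine nucleotide carrier SLC25A6 rising from 549 to 652 TPM. Glutathione and NRF2 target genes had 5 lower and 2 higher of 35, and 3 and 4 under median-of-ratios scaling, with GSTM4 rising from 21.9 to 33.1 TPM and GSTO1 falling from 87.3 to 67.3 TPM. Polyamine genes stood above the background for lower genes, with 5 lower and none higher of 16 (31.2% lower, against 20.2% of all genes), and 2 lower under median-of-ratios scaling. Without siTDP-43 replicate 1 or replicate 2, 3 polyamine genes were lower.

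Membrane traffic lists had 25 to 29.3% of members lower, against 20.2% of all genes, with strong falls in single genes. Of 55 Rab GTPases 16 were lower and 3 higher (29.1% and 5.45%), and none was higher without siTDP-43 replicate 2. Under median-of-ratios scaling 12 Rab genes were lower and 6 higher. RAB18, of lipid droplets and the endoplasmic reticulum, was at 65.3, 67.9 and 68.4 TPM in siControl and 39.1, 39.4 and 36.8 TPM in siTDP-43, RAB27B, of secretory granules, at 3.31, 2.81 and 3.22 TPM in control and 0.82, 0.9 and 1.05 TPM in knockdown libraries, and RAB3A, of synaptic vesicles, at 22.6, 23.9 and 21.5 TPM in control and 14.2, 14.5 and 15.6 TPM in knockdown libraries. All 3 had separate groups, as in 44% of all genes tested. RAB27B passed the 1 TPM filter only through its siControl libraries, so its separation is a description only. The ESCRT, retromer and V-ATPase list had 13 lower and 4 higher of 52, and 7 and 10 under median-of-ratios scaling. CHMP1B, an ESCRT-III subunit, was at 19.9, 21.2 and 20.8 TPM in control and 9.99, 10.8 and 9.8 TPM in knockdown libraries. Without siTDP-43 replicate 2 the list had 8 lower and 2 higher, and 2 were higher without siControl replicate 3 or siTDP-43 replicate 3. COPI, COPII and Golgi genes had 12 lower and 1 higher of 41, and 5 in each direction under median-of-ratios scaling. COPG2, a coatomer subunit, fell from 59.9 to 38.6 TPM.

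Nuclear transport genes had 15 lower and 4 higher of 64 (23.4% and 6.25%), close to the background, and 9 and 12 under median-of-ratios scaling. RANBP1, a cofactor of the Ran GTPase cycle, was at 374, 369.7 and 405 TPM in siControl and 196, 217 and 210.5 TPM in siTDP-43 (log2 -0.88 ± 0.05, limma adjusted p = 1.1e-05). The importin KPNA3 fell from 41.6 to 28.7 TPM. POM121C and POM121, near-identical pore membrane proteins whose reads cannot be told apart with certainty, rose from 75.7 to 99.2 and from 60.7 to 74.6 TPM.

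Among 34 cell death genes of the BCL2 and caspase families, 13 were lower and 3 higher (38.2%, median -0.12), and 7 were lower under median-of-ratios scaling. HRK held the lowest log2 fold change of the list. BCL2L1, the anti-apoptotic BCL-xL gene, rose from 39.1 to 44.7 TPM. The anti-apoptotic genes BCL2 and MCL1 were among the lower and the activator BAD among the higher, so neither direction held one role. Without siControl replicate 2, siTDP-43 replicate 1 or siTDP-43 replicate 2, the lower count was 8. With siTDP-43 replicate 2 left out none was higher.

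Innate immune genes had 12 lower and 1 higher of 26 (46.2%, median -0.21). Of 18 genes of interferon response and antigen presentation, 10 were lower and none higher. HLA-C was at 17.3, 19.4 and 20.6 TPM in siControl and 9.98, 10.4 and 10.7 TPM in siTDP-43, and the peptide transporter TAP2 at 3.92, 5.2 and 5.27 TPM in control and 2.29, 1.96 and 2.81 TPM in knockdown libraries. USP18, a brake on interferon signalling, was at 5.01, 4.93 and 6.44 TPM in control and 1.71, 2.38 and 1.7 TPM in knockdown libraries. Each had separate groups, while reads of HLA genes are uncertain because the genes are alike. CD59, which protects cells from complement, fell from 68.4 to 44.3 TPM, and the single higher member was CFP.

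In absolute terms the largest shifts sat in the most abundant RNAs. The 6 largest rises in TPM were all mitochondrially encoded. MT-CYB was at 5705, 5664 and 5080.4 TPM in siControl and 7765, 7647 and 7234 TPM in siTDP-43 and kept its call in all 15 alternatives, whereas MT-CO3, at 16986, 15723 and 13827 TPM in control and 18597, 18074 and 17844 TPM in knockdown libraries, kept it in 8 of 15. Apart from STMN2, the largest falls were in HNRNPA2B1, a splicing regulator related to TDP-43, at 1549, 1677 and 1971 TPM in control and 1232, 1275 and 1313 TPM in knockdown libraries, in TUBA1A, and in ARHGAP36, an activator of Hedgehog and inhibitor of protein kinase A signalling, at 649, 662 and 658 TPM in control and 330.3, 345 and 335 TPM in knockdown libraries. ARHGAP36 averaged 656 ± 6.26 and 337 ± 7.39 TPM (SD, n = 3 libraries each). LDHA, the lactate dehydrogenase of muscle type, fell from 1132 to 888 TPM. TUBA1B was at 2341, 2456 and 2403 TPM in control and 2161, 2192 and 2129 TPM in knockdown libraries, a fall that was called as deposited but not under median-of-ratios scaling.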

How the data were processed

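RNA from 10 SH-SY5Y libraries was sequenced by the submitters with a TruSeq RNA kit, and 6 of these libraries are compared here. The authors deposited TPM values per gene. Per the submitters' processing notes, these used STAR, RSEM and the hg38 build. Their versions, the strand setting and the annotation were not given in the sources used here. TPM keeps no read depth, so no counting interval can be given, and between 16711 and 16977 genes reached 1 TPM in each of the 6 libraries.

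TPM values were analysed as log2(TPM + 1) with limma 3.58.1 in R 4.3.3 (trended empirical Bayes), for genes whose mean over the 6 libraries reached 1 TPM. The model had 4 group means over all 10 libraries, with 6 residual degrees of freedom, and p-values were Benjamini-Hochberg adjusted over 16799 genes. Fold changes are on the log2(TPM + 1) scale, which understates changes of low genes. The analysis was first tested on simulated data. Same-numbered siControl and siTDP-43 libraries deviated together from their group means (correlations 0.33, 0.15 and 0.2), and the number comes from the library titles, so a fit with the number as a block was an alternative. Other alternatives were pseudocounts, filters, median-of-ratios and quantile scaling, mitochondrial genes left out, the 6 siRNA libraries alone, robust moderation and each library left out.

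Genes named were TARDBP and STMN2 as a label check, the 12 highest and 12 lowest called protein-coding genes reaching 10 TPM without overlap, up to 4 called members per direction and list with the smallest adjusted p, members given as not called, the 6 largest TPM differences per direction, and called genes under 1 TPM in siControl and at least 3 TPM in siTDP-43. Neighbouring genes of these loci were named after their values were seen, as were list members named only by their call. The members and lists were chosen with earlier results of these data known. Gene coordinates came from GENCODE release 29, which held 57836 of the 58174 gene IDs, and promoter sequence from RefSeq (GRCh38.p14). Some genes that this rule selects are not reported here.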

Additional observations from a re-analysis of the deposited data

How the results depend on the processing

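The 1073 higher and 3390 lower genes depended on the scaling and on the threshold. There were 1967 higher and 2083 lower with median-of-ratios scaling and 1991 and 2070 with quantile normalization, and the share of lower genes among calls, 76% as deposited, was 51.4% and 51% under these and 65.6% with the mitochondrial genes left out. An adjusted p under 0.01 left 500 higher and 1875 lower. Leaving out 1 library in turn gave 684 to 957 higher and 2526 to 3209 lower, with the lowest higher count without siTDP-43 replicate 3. With the replicate number as a block, 1055 were higher and 3257 lower, and 949 and 3051 of these were the same genes as without it. Of 345 named genes, 340 kept their call under the block, 5 lost it (RBFOX2, TNRC6B, MRPL4 and RAB5B among them), and no other named call changed. Median-of-ratios scaling kept 324 of the named calls, while over all calls it kept the 1073 higher and 2083 of the 3390 lower. Named genes were mostly chosen for large changes or small adjusted p, so their kept calls do not stand for all calls. Direction reversed for 3 genes under quantile normalization, MT-CO1 (log2 -0.05, limma adjusted p = 0.45), MT-ND4L (-0.00, adjusted p = 1) and TPT1 (-0.03, adjusted p = 0.66). The lower count moved by over 1.5 times in 32 of 55 lists under median-of-ratios scaling and in 2 under the block. The cause of these differences was not tested. TPM gives no depth, so what depth limits in genes near 1 TPM is unknown.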
